A study of Mus musculus with 12 samples.

Results

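The genes described are 31 genes of cholesterol synthesis, uptake and export, chosen by symbol from a list of 31 names among the 32587 gene rows of each library. They comprise 18 enzymes from acetyl-CoA to cholesterol and 5 genes of the SREBP transcription factors and their regulation. The rest are 4 genes of sterol transport and uptake and 4 genes of sterol export and esterification. The list is not the complete pathway. RNA was sequenced in 12 libraries of organoids, which are epithelial cultures started from intestinal stem cells, from the small intestine of wild-type (WT) mice, with the duodenum given as the tissue. Each group holds 3 libraries, and 3 groups received a bile acid: cholic acid, written CA, chenodeoxycholic acid, written CDCA, and deoxycholic acid, written DCA. The controls received dimethyl sulfoxide (DMSO), a solvent. All 4 groups were grown in IntestiCult medium with penicillin and streptomycin, and only epithelial cells are expected in such cultures. The labels state 50 mmol/L for the acids, which is so high for bile acids that the unit is in doubt, and the exposure is 2 days by the treatment label but 96 hours by the protocol. Whether replicate libraries are separate cultures or separate mice is not stated, and the p-values therefore cover only differences between these libraries, which may be of technical origin.

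Cells make cholesterol from acetyl-CoA through mevalonate, farnesyl diphosphate, squalene and lanosterol. When sterols run low in the endoplasmic reticulum, the escort protein SCAP carries the SREBP precursors to the Golgi, where they are cleaved, and the freed fragments switch on genes of synthesis and uptake. The INSIG proteins hold SCAP back when sterols are plentiful. In the small intestine, enterocytes also take up cholesterol from the lumen, return part of it to the lumen, and esterify the rest for transport in chylomicrons. Bile acids disperse dietary lipid for this uptake. CA and CDCA are primary bile acids made in the liver, and DCA is made from CA by gut bacteria, which remove a hydroxyl group. CDCA and DCA carry the same number of hydroxyl groups, at different positions, and fewer than CA.

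Abundance was deposited as TPM (a length-scaled share of all transcripts), so that levels can be compared between genes. Library totals were 889156 to 936841 TPM, the read depth is unknown, and counting errors cannot be stated. All 31 genes passed the filter of at least 1 TPM in at least 3 libraries, as did 11952 rows in all. Abca1 passed only through its DCA libraries. Mitochondrial transcripts took 14.6 to 20.1% of TPM in DMSO, 13.6 to 14.4% in CA, 14.2 to 18.1% in CDCA and 11.2 to 12.7% in DCA. Epithelial identity was plain, with Epcam, an epithelial adhesion molecule, at 694 to 828 TPM in every library, whereas the 9 mesenchymal markers summed to 3.65 to 6.43 TPM and Dcn and Lum were at 0 in all 12 libraries. The 6 general epithelial markers, Epcam among them, summed to 3179 to 3655 TPM in DMSO and 3033 to 3056 TPM in DCA. Of these 6, 3 passed as lower in DCA than DMSO and 0 as higher, while 19.2% of all genes tested were lower. The duodenal factors Pdx1 and Gata4 were present at 8.16 to 11.2 TPM and 76.8 to 104.6 TPM, while among markers of the distal small intestine and colon Car1 was at 0 in all libraries, Hoxb13 in 11 of 12, and Slc10a2 did not exceed 0.822 TPM. Fabp6, the ileal bile acid-binding protein and a known target of the bile acid receptor FXR, was at 1.30, 2.31 and 0.971 TPM in DMSO, 306, 138 and 276 TPM in CA, 164, 197 and 755 TPM in CDCA and 1481, 1653 and 1100.0 TPM in DCA, and passed as higher under each acid against DMSO. CDCA replicate 3 and DMSO replicate 1 had the lowest summed crypt stem cell markers of their groups, at 364 TPM against 705 and 822 TPM in the other CDCA libraries, and at 545 TPM against 854 and 1107 TPM in the other DMSO libraries.

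In DMSO the highest means were those of the early enzymes Fdps, Idi1 and Hmgcs1. Others of the early steps stood lower, such as Acat2 (66.5 to 84.9 TPM) and Mvd (27.1 to 33.2 TPM). Fdps, which makes farnesyl diphosphate, was the highest at 184 ± 18.9 TPM (mean ± SD, n = 3). It was followed by Idi1, the isomerase that supplies its substrate, at 136 ± 15.4 TPM, Hmgcs1, the cytosolic HMG-CoA synthase, at 129 ± 14.6 TPM, and Insig1, with a mean of 111 TPM. The DMSO libraries of Idi1 (118 to 148 TPM) and Hmgcs1 (114 to 144 TPM) overlapped, and the order of these neighbours differed between libraries, so it is not resolved. The ranges of Hmgcs1 and Insig1 (100.3 to 122 TPM) overlapped too, but Hmgcs1 was above Insig1 in each DMSO library. At the lower end stood Mvk (11.8 to 14.5 TPM), Npc1 (8.20 to 9.62 TPM) and Hsd17b7 (7.77 to 9.51 TPM). Abca1, the pump that loads cholesterol onto apolipoproteins at the basolateral membrane, was at 0.776 to 0.964 TPM, below every other gene of the list in each DMSO library. Npc1l1, the cholesterol importer of the brush border, was at 54.9 to 74.5 TPM and the sterol exporter subunits Abcg5 and Abcg8 were at 52.9 to 76.8 and 32.3 to 44.8 TPM.

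The 250 bases before the start site are shown for 4 genes from different steps of sterol handling whose values recur in the comparisons: a regulator (Insig1), an early enzyme (Hmgcs1), a late enzyme (Msmo1) and the importer (Npc1l1). The sequences are RefSeq's for build GRCm38.p6, written from 5′ to 3′ on the strand of the gene, and capitals mark the CCAAT box bound by NF-Y (CCAAT, or ATTGG on the other strand) and the core of the sterol regulatory element bound by SREBP (TCACNCCAC, in Hmgcs1).
Insig1, chr5:28071162-28071411 (+): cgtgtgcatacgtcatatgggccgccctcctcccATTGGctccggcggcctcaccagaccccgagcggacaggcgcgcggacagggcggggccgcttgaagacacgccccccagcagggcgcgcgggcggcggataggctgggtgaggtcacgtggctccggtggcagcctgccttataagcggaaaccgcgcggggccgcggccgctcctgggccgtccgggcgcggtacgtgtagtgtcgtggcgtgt
Hmgcs1, chr13:119690101-119690350 (+): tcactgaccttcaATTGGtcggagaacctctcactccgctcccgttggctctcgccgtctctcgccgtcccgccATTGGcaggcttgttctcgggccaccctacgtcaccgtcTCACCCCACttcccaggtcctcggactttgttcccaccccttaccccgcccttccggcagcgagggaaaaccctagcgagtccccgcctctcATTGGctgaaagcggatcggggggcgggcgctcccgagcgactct
Msmo1, chr8:64733579-64733828 (-): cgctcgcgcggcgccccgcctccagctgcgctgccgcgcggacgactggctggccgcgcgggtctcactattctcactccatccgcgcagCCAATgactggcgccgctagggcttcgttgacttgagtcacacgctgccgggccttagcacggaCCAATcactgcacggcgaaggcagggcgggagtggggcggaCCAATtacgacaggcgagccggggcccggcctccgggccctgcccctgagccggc
Npc1l1, chr11:6230246-6230495 (-): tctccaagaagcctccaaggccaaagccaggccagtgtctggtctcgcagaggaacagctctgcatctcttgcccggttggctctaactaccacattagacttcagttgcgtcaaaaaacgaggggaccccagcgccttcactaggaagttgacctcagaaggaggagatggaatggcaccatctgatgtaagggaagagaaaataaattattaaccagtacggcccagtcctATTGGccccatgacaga
The table of promoters had an entry for 25 of the 31 genes. On either strand of the 250 bases, CCAAT occurred in 21 of 25, among them 14 of the 15 enzymes with an entry, and in 37.5% of the 27025 genes in the table. Hmgcs1 and Msmo1 held 3 CCAAT boxes each. TCACNCCAC occurred in 1 of 25, against 1.22% of all genes. The E-box CACGTG occurred in 6 of 25 (6.86% of all genes) and the GC box GGGCGG in 21 of 25 (35.4% of all genes). No searched motif overlapped the Hmgcs1 sterol element. A match describes letters in this window and is not evidence of binding.

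Under DCA, 21 of the 31 genes rose against DMSO and 0 fell, by limma on log2(TPM + 1) with Benjamini-Hochberg adjustment over 11952 genes. Of all genes tested 38.0% passed, 18.8% as higher and 19.2% as lower. The median difference was 0.58 over the 31 genes and -0.02 over all tested genes, on the log2(TPM + 1) scale used for every difference given here, which understates changes of low genes. The largest difference was that of Insig1, and the genes that rose covered enzymes from Hmgcs1 to Dhcr7, the importer Npc1l1, the exporters Abcg5 and Abcg8 and the esterifying enzyme Soat2. The transcripts of the SREBP factors and of their escort did not pass the test. In 19 of 31 genes (61.3%) each DCA library lay above all 9 other libraries, as in 12.8% of all genes tested, and in 23 of 31 each DCA library lay above each DMSO library, as in 24.2% of all genes. Abca1 is in both counts and passed the filter through its DCA libraries alone, and without it they were 18 and 22 of 30. TPM are shares of a total, and once 13 mitochondrial and 2 rRNA rows were removed the split was 20 higher and 3 lower, while the median of all tested genes moved from -0.02 to -0.15.

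**Figure D1:**
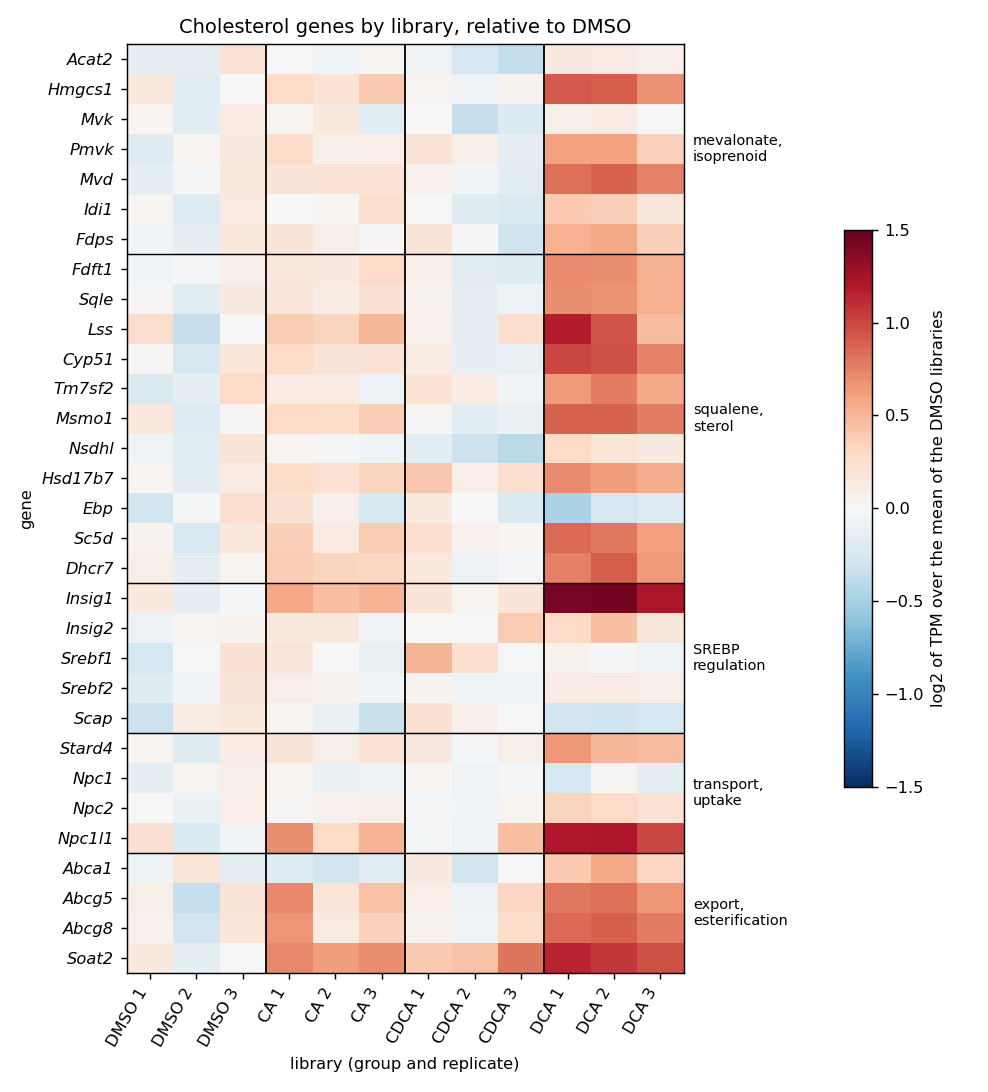
Abundance of the 31 genes (rows, in order of role) in the 12 libraries (columns), as the log2 of TPM over the mean of the DMSO libraries, with red above and blue below that mean. The DCA columns are red in most rows, with Insig1, Npc1l1 and Soat2 the darkest, while Ebp and Scap have no red DCA library.

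Of the 7 enzymes of the mevalonate and isoprenoid steps, 5 rose under DCA and 0 fell. Hmgcs1, which condenses acetoacetyl-CoA with acetyl-CoA, was at 144, 114 and 128 TPM in DMSO and at 244, 239.8 and 207 TPM in DCA. The groups did not overlap, the DCA mean was 1.79 times the DMSO mean, and the difference was 0.84 (95% CI 0.63 to 1.04, limma adjusted p = 7.29e-05). Mvd, which decarboxylates mevalonate diphosphate to the isoprene unit, was at 27.1, 29.2 and 33.2 TPM in DMSO and 52.8, 55.0 and 49.9 TPM in DCA, a difference of 0.80 (95% CI 0.60 to 1.00, limma adjusted p = 7.49e-05). Here too every DCA library was above every DMSO library. Pmvk, the second kinase of the pathway, differed by 0.51 (95% CI 0.26 to 0.76, limma adjusted p = 0.00424). Fdps was at 179, 169 and 206 TPM in DMSO and 264, 277 and 237 TPM in DCA and differed by 0.49 (95% CI 0.24 to 0.74, limma adjusted p = 0.00542). Idi1 was the smallest of the 5, from 118 to 148 to 152 to 178 TPM, at 0.31 (95% CI 0.08 to 0.54, limma adjusted p = 0.0351). Its call was lost without DCA replicate 1 (0.26, limma adjusted p = 0.123), without DCA replicate 2 (0.28, limma adjusted p = 0.106) and without DMSO replicate 2 (0.21, limma adjusted p = 0.141). It was also lost with mitochondrial and rRNA rows left out (0.17, limma adjusted p = 0.115), with no filter (limma adjusted p = 0.0629) and without trend and robust moderation (limma adjusted p = 0.0539). The other 2 did not pass: Acat2, the thiolase at the entry of the pathway, was at 66.5 to 84.9 TPM in DMSO and 76.9 to 80.2 TPM in DCA, and Mvk, mevalonate kinase, at 11.8 to 14.5 and 13.2 to 14.4 TPM, so that the groups overlapped. Their differences were 0.12 (CI -0.10 to 0.34) and 0.067 (CI -0.18 to 0.31). Acat2 passed with median-ratio scaling (0.15, limma adjusted p = 0.0475).

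Of the 11 enzymes from squalene to cholesterol, 9 rose under DCA and 0 fell, with a median difference of 0.65. Fdft1, squalene synthase, which commits farnesyl diphosphate to sterols, was at 33.5, 33.7 and 36.4 TPM in DMSO and 56.4, 55.9 and 50.2 TPM in DCA, a difference of 0.63 (95% CI 0.44 to 0.83, limma adjusted p = 0.000272). Sqle, the epoxidase that follows, was at 59.6, 52.1 and 64.4 and 95.3, 93.9 and 84.9 TPM and also differed by 0.63. For both enzymes the groups were apart by more than their own range. Lss, which closes the sterol rings, was more spread, with DCA libraries at 58.1, 49.6 and 35.4 TPM and DMSO libraries at 30.9, 20.3 and 25.9 TPM. Its groups did not overlap, but DCA replicate 3 fell within the range of the CA libraries (32.5 to 36.4 TPM), and the difference of 0.86 (95% CI 0.48 to 1.24, limma adjusted p = 0.00236) has a wide interval. Cyp51, which removes a methyl group from lanosterol, rose from 57.9, 48.6 and 65.0 to 115, 110.5 and 95.6 TPM, by 0.90 (95% CI 0.66 to 1.14, limma adjusted p = 0.000122).

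Among the later enzymes, Msmo1, the oxidase that starts the removal of the remaining methyl groups, was at 97.4, 76.6 and 88.3 TPM in DMSO and 161, 161 and 149 TPM in DCA, a difference of 0.84 (95% CI 0.65 to 1.04, limma adjusted p = 4.93e-05). No library of the other 3 groups reached the DCA range. The other enzymes of that demethylation were lower in abundance and differed less. Hsd17b7 was at 8.96, 7.77 and 9.51 and 14.3, 13.6 and 12.7 TPM and rose by 0.58, and Nsdhl was at 32.0 to 40.7 and 39.3 to 43.7 TPM, overlapped, and did not pass at 0.21 (95% CI -0.0096 to 0.42, limma adjusted p = 0.122). Nsdhl did pass with median-ratio scaling (0.23, limma adjusted p = 0.00814) and without DMSO replicate 3 (0.30, limma adjusted p = 0.0220). Tm7sf2, a sterol reductase, rose by 0.65 (95% CI 0.38 to 0.93, limma adjusted p = 0.00161). Sc5d, the desaturase near the end of the pathway, was at 40.3, 33.0 and 43.2 TPM in DMSO and 69.7, 67.1 and 59.4 TPM in DCA, and Dhcr7, the reductase that yields cholesterol, at 47.7, 41.1 and 46.1 and 75.7, 84.3 and 69.9 TPM. Both had no overlap between the groups and rose by 0.74 and 0.76 (limma adjusted p = 0.000381 and 0.000124). Ebp, the sterol isomerase that acts before Sc5d, went the other way without passing, from 25.6 to 37.0 to 22.4 to 27.1 TPM, at -0.28 (95% CI -0.60 to 0.044, limma adjusted p = 0.159). With mitochondrial and rRNA rows left out Ebp passed as lower (-0.42, limma adjusted p = 0.0325), and it did so without DMSO replicate 1 (-0.41, limma adjusted p = 0.0453).

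Of the 5 genes of the SREBP factors and their regulation, Insig1 rose under DCA and the other 4 did not pass. Insig1, which retains SCAP in the endoplasmic reticulum and is itself an SREBP target, was at 122, 100.3 and 109 TPM in DMSO and at 297, 299 and 259 TPM in DCA. The highest library outside DCA was at 165 TPM (CA replicate 1), the DCA mean was 2.58 times the DMSO mean, and the difference was 1.36 (95% CI 1.17 to 1.55, limma adjusted p = 3.18e-06). Its paralogue Insig2 was at 15.7, 17.1 and 17.3 TPM in DMSO and 20.6, 22.8 and 18.8 TPM in DCA, apart by a small step, and did not pass at 0.29 (95% CI 0.042 to 0.54, limma adjusted p = 0.0628), except without CDCA replicate 3 (0.29, limma adjusted p = 0.0306). Srebf2, which encodes the SREBP that drives mainly cholesterol genes, was at 60.3, 66.8 and 78.5 TPM in DMSO and 74.9, 74.3 and 73.0 TPM in DCA, with the DCA libraries inside the DMSO range, and differed by 0.12 (CI -0.075 to 0.31). It passed as higher without DMSO replicate 3 (0.22, limma adjusted p = 0.0373). Srebf1, which encodes the SREBPs of fatty acid synthesis, was at 67.9 to 95.5 and 78.6 to 84.7 TPM and differed by 0.0037 (CI -0.29 to 0.30). Scap was at 14.3 to 20.1 and 14.5 to 14.9 TPM, also overlapping, and differed by -0.26 (95% CI -0.54 to 0.025, limma adjusted p = 0.139). It passed as lower with mitochondrial and rRNA rows left out (-0.39, limma adjusted p = 0.0226) and without DMSO replicate 1 (-0.40, limma adjusted p = 0.0143). Transcript levels do not report cleavage of the SREBP precursors, which was not measured in these libraries.

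**Figure D2:**
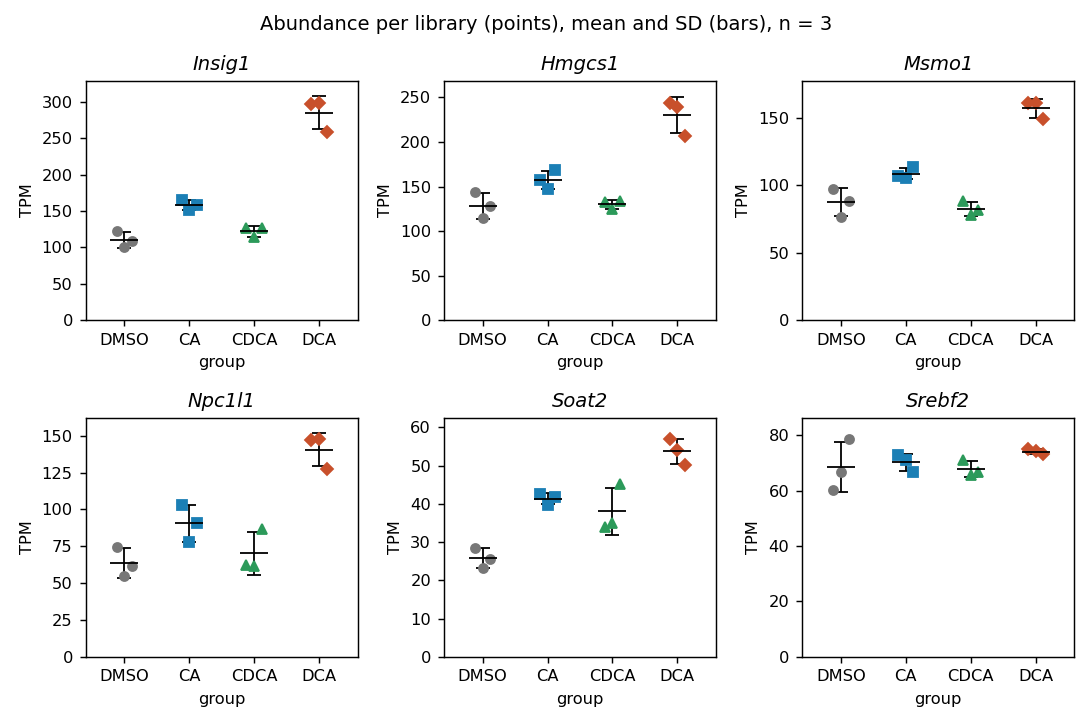
TPM per library (points), with the mean and SD of each group (bars, n = 3), for the regulator Insig1, the enzymes Hmgcs1 and Msmo1, the importer Npc1l1, the esterifying enzyme Soat2 and the factor Srebf2, each axis starting at 0. In 5 panels the DCA points lie above all others, whereas for Srebf2 the DCA libraries (73.0 to 74.9 TPM) lie within the DMSO libraries (60.3 to 78.5 TPM).

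Of the 4 genes of sterol transport and uptake, 3 rose under DCA. Npc1l1 was at 74.5, 54.9 and 61.6 TPM in DMSO and at 147, 147 and 128 TPM in DCA. The lowest DCA library stood above the highest library of any other group (103 TPM, in CA), the DCA mean was 2.21 times the DMSO mean, and the difference was 1.14 (95% CI 0.82 to 1.46, limma adjusted p = 0.00016). Stard4, a soluble sterol carrier, was at 62.7, 54.0 and 66.7 TPM in DMSO and 95.7, 86.5 and 84.1 TPM in DCA and rose by 0.53 (95% CI 0.34 to 0.73, limma adjusted p = 0.00068). The lysosomal exit of cholesterol needs Npc2 and Npc1, which hand sterol from the lumen to the membrane. Npc2 rose by a small step, from 94.4, 88.0 and 102 to 119, 116 and 109.7 TPM, a difference of 0.28 (95% CI 0.12 to 0.43, limma adjusted p = 0.00828), and its groups did not overlap. Npc1 did not pass, at 8.20, 9.27 and 9.62 TPM in DMSO and 7.51, 9.17 and 8.23 TPM in DCA, with overlapping groups and a difference of -0.11 (CI -0.32 to 0.11). With mitochondrial and rRNA rows left out Npc1 passed as lower (-0.24, limma adjusted p = 0.0460).

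Of the 4 genes of export and esterification, 3 rose under DCA. Soat2, the acyltransferase that esterifies cholesterol in enterocytes, was at 28.5, 23.3 and 25.7 TPM in DMSO and 56.8, 54.1 and 50.1 TPM in DCA. Its DCA mean was 2.08 times the DMSO mean, and the difference was 1.03 (95% CI 0.79 to 1.27, limma adjusted p = 6.21e-05). Abcg5 was at 71.6, 52.9 and 76.8 TPM in DMSO and 116, 119 and 106 TPM in DCA, and Abcg8, with which it forms the pump that returns sterols to the lumen, at 41.4, 32.3 and 44.8 and 71.2, 73.4 and 67.3 TPM. Both subunits rose without overlap, by 0.77 (95% CI 0.43 to 1.11, limma adjusted p = 0.00214) and 0.83 (95% CI 0.52 to 1.14, limma adjusted p = 0.000794). Abca1 was at 0.807, 0.964 and 0.776 TPM in DMSO and 1.12, 1.26 and 1.05 TPM in DCA. These groups did not overlap either, yet the difference did not pass, at 0.21 (95% CI -0.067 to 0.50, limma adjusted p = 0.214), and at about 1 TPM the pseudocount weighs on it. Abca1 passed in 0 of its 17 alternatives, a pseudocount of 0.1 among them, and the lowest limma adjusted p over these was 0.0581.

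Exons of 7 of the 31 genes overlap an expressed neighbour in the GENCODE M21 annotation (GRCm38), and the strand setting of the quantification is not given in the sources used here, so their values are uncertain to that extent. The overlaps are on opposite strands for Fdft1 with Ctsb (774 bases), Npc1 with Rmc1 (319 bases), Cyp51 with Akap9 (166 bases), Srebf1 with Rai1 (109 bases) and Abcg5 with Abcg8 (82 bases), and on the same strand for Tm7sf2 with Vps51 (532 bases). Ctsb, a lysosomal protease, was at 289 to 355 TPM in DMSO and 442 to 505 TPM in DCA, and its part in the Fdft1 difference was not tested. Akap9 and Vps51 had overlapping or lower DCA libraries, at 16.9 to 22.2 TPM against 16.4 to 23.0 TPM in DMSO and 22.5 to 23.9 TPM against 24.8 to 29.8 TPM. Of near copies of 2 enzymes, Acat3 was at 0.278 to 0.900 TPM over the 12 libraries and Idi2 was listed at 0.

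**Figure D3:**
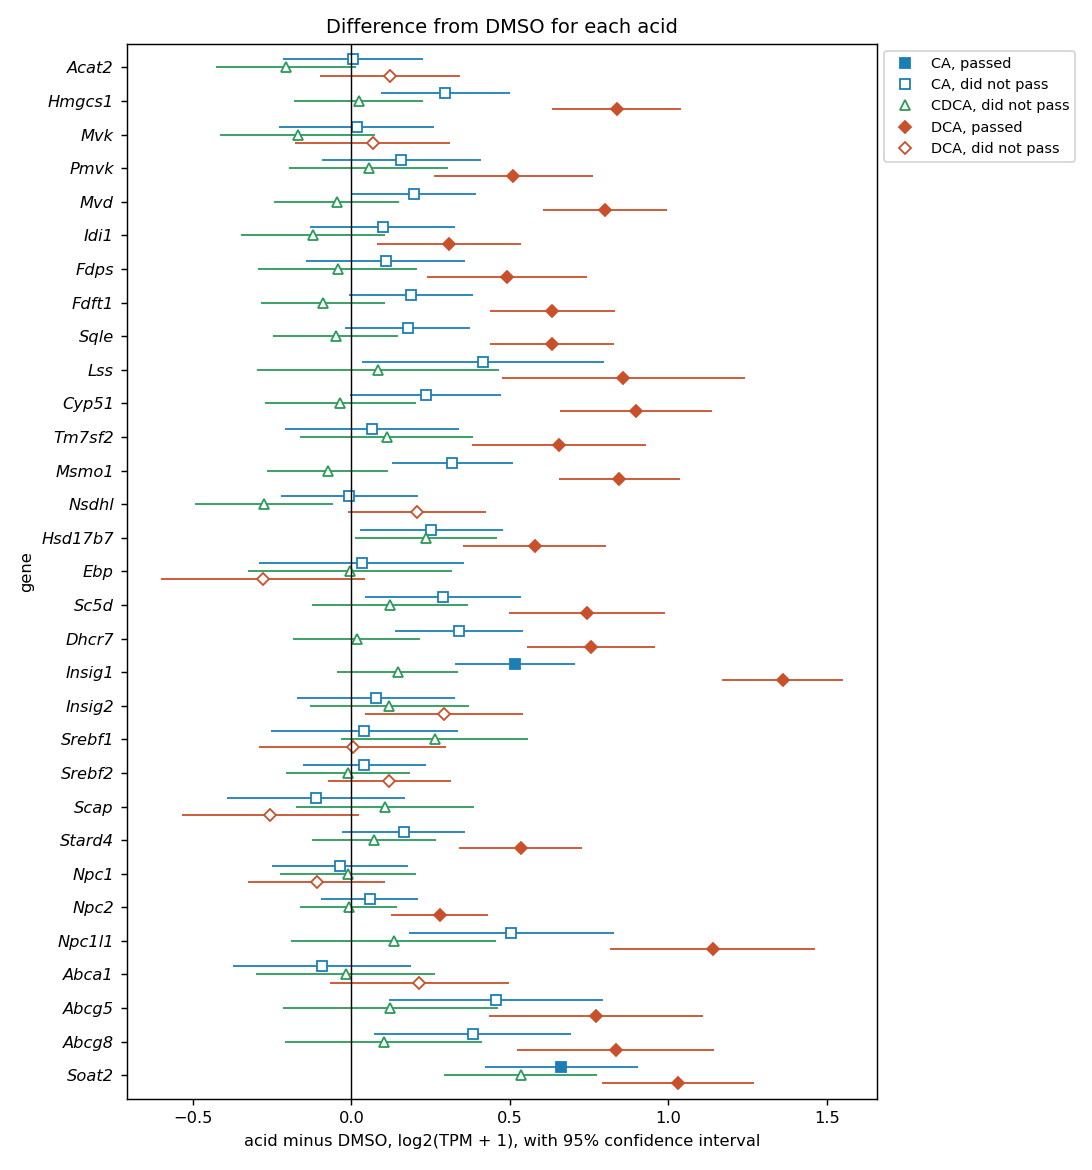
Difference of each acid from DMSO in log2(TPM + 1) for the 31 genes, with 95% confidence intervals of the limma fit and filled symbols where the adjusted p was under 0.05. DCA passed for 21 genes, CA for Insig1 and Soat2, and CDCA for 0, and the DCA symbols of most enzymes lie to the right of the other acids.

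Transcripts that mark cell types moved with DCA. The 17 enterocyte markers summed to 2784 to 4492 TPM in DMSO and to 7441 to 9669 TPM in DCA, and 15 of 17 rose. The 11 crypt stem cell markers summed to 545 to 1107 TPM in DMSO and 177 to 199 TPM in DCA, with 10 of 11 lower, and all 11 markers of dividing cells were lower. No marker of these 3 lists was at 0 in every library. The 18 synthesis enzymes summed to 1063, 949 and 1146 TPM in DMSO and 1645, 1645 and 1448 TPM in DCA, and the 4 genes of export and esterification to 142, 109 and 148 and 246, 248 and 225 TPM. In these bulk libraries fewer cells of a type and less RNA per cell cannot be told apart, and the part of the enterocyte share in the cholesterol gene differences was not tested. The 3 CA libraries had enterocyte sums of 6421, 4169.7 and 5291 TPM, of which replicate 2 lay within the DMSO range and the other 2 above it, with enzyme sums of 1208, 1154 and 1208 TPM. Within CDCA, replicate 3 had the highest enterocyte sum (3019, 2898 and 4484 TPM for replicates 1, 2 and 3) and the highest export sum (148, 137 and 177 TPM), but the lowest enzyme sum (1118, 985 and 955 TPM). The enzymes did not share this order. The 7 mevalonate and isoprenoid enzymes were lowest in replicate 3 (638, 565 and 529 TPM), with Fdps alone at 210, 180 and 150 TPM. The 11 enzymes from squalene to cholesterol were lowest in replicate 2 (480, 419 and 426 TPM).

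**Figure D4:**
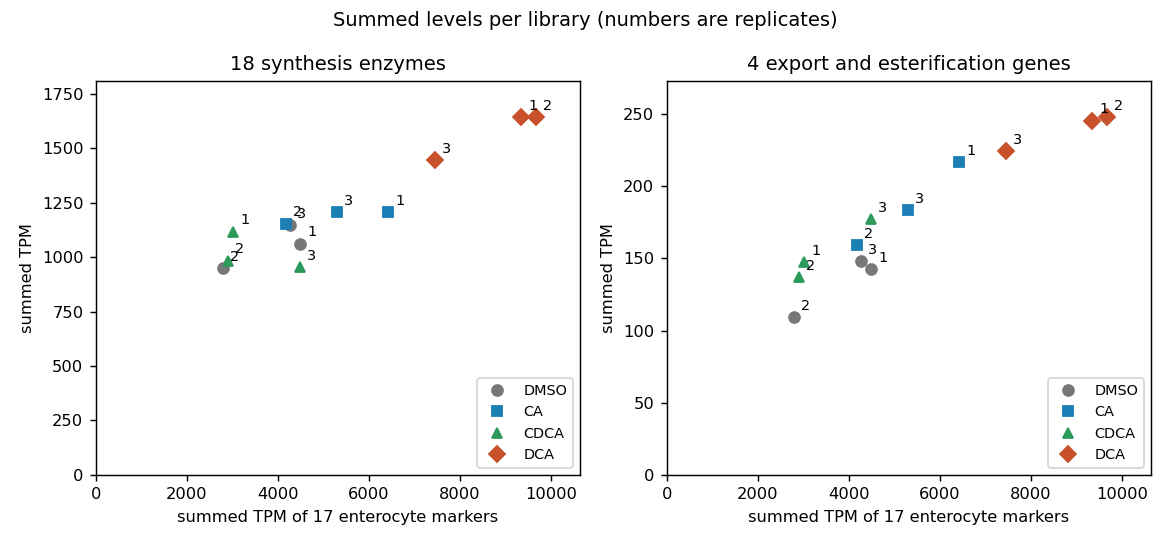
Summed TPM of the 18 synthesis enzymes (left) and of the 4 genes of export and esterification (right) against the summed TPM of 17 enterocyte markers, 1 point per library with its replicate number and both axes from 0. The DCA libraries are highest on every axis (enzyme sums 1448 to 1645 TPM). Within its group CDCA replicate 3 stands highest for export. Its enzyme sum is the lowest, by a small step from replicate 2 (955 against 985 TPM).

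CA against DMSO asked what the primary acid changes in the same genes. Here 2 of 31 genes rose, Insig1 and Soat2, and 0 fell, while 0.577% of all genes tested passed and 0.569% were higher. At an unadjusted p under 0.05 there were 12 of the 31, all higher in CA, against 1763 of 11952 genes (14.8%) in either direction. Soat2 was at 42.6, 39.7 and 41.7 TPM in CA, above the 23.3 to 28.5 TPM of DMSO in each library, a difference of 0.66 (95% CI 0.42 to 0.90, limma adjusted p = 0.025). Insig1 was at 165, 151 and 158 TPM, also above each DMSO library, a difference of 0.52 (95% CI 0.33 to 0.71, limma adjusted p = 0.026). Both calls were lost without any one CA library, without DCA replicate 2 or without DMSO replicate 2, with limma adjusted p of 0.0512 to 0.147, and the count was 3 without DMSO replicate 1, when Msmo1 also passed (0.40, limma adjusted p = 0.0421). Insig1 was also lost without DCA replicate 1 (limma adjusted p = 0.0520). Scaling by median ratios ended both calls too, at 0.49 for Insig1 and 0.63 for Soat2 (limma adjusted p = 0.0593 and 0.0702).

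Of the 18 enzymes 0 passed under CA, at a median difference of 0.18. Hmgcs1 was at 157, 148 and 168 TPM and Msmo1 at 107, 106 and 113 TPM, above every DMSO library, with differences of 0.30 (95% CI 0.093 to 0.50, limma adjusted p = 0.173) and 0.32 (95% CI 0.13 to 0.51, limma adjusted p = 0.127). Dhcr7 was at 58.3, 56.6 and 56.1 TPM, also above every DMSO library, with a difference of 0.34 (CI 0.14 to 0.54). In 11 of the 31 genes all CA libraries were above all DMSO libraries, as in 11.8% of all genes, and the median difference of the 31 genes was 0.16 against 0.03 over all genes. Beside this, the 17 enterocyte markers had a median difference of 0.62 (0.18 to 1.13), the 11 stem cell markers -0.53 (-1.46 to -0.23) and the 11 markers of dividing cells -0.26 (-0.52 to -0.15). None of these markers passed the limma test under CA, and in 3 of the first list all CA libraries were above DMSO, in 4 of the second and 5 of the third all below. Their part in the CA differences was not tested. Npc1l1 was at 103, 78.1 and 90.6 TPM under CA and differed by 0.50 (95% CI 0.18 to 0.83, limma adjusted p = 0.148). The exporter subunits were spread widely, Abcg5 at 111, 75.8 and 90.8 TPM and Abcg8 at 62.7, 43.0 and 50.2 TPM, and replicate 2 of CA fell inside the DMSO range for both. Their differences were 0.46 (CI 0.12 to 0.79) and 0.38 (CI 0.071 to 0.69). Abca1 was the exception, at 0.740, 0.704 and 0.755 TPM, below each DMSO library, the sole such case among the 31 genes (5.21% of all genes), with a difference of -0.092 (CI -0.37 to 0.19).

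CDCA against DMSO gave 0 calls among the 31 genes by limma, while 0.594% of all genes passed. At an unadjusted p under 0.05 there were 3 of 31, a share near the 9.77% of all genes. Soat2 was closest to the threshold, at 34.0, 35.0 and 45.1 TPM, the 1 gene of 31 with every CDCA library above every DMSO library (6.97% of all genes), with a difference of 0.53 (95% CI 0.29 to 0.78, limma adjusted p = 0.0551). Leaving out DMSO replicate 1 made it pass (0.61, limma adjusted p = 0.0417). Hsd17b7 was at 11.6, 9.41 and 10.4 TPM and differed by 0.23 (CI 0.01 to 0.46), and Nsdhl, at 31.9, 28.8 and 26.8 TPM, was the 1 gene with every library below DMSO (3.03% of all genes) and differed by -0.28 (CI -0.49 to -0.059, limma adjusted p = 0.358). However, the highest CDCA library of Nsdhl (31.93 TPM) lay only just under its lowest DMSO library (31.97 TPM). Insig1 was at 127, 114 and 126 TPM, with 1 library inside the DMSO range, and differed by 0.15 (CI -0.045 to 0.34). Hmgcs1 was at 133, 124 and 133 TPM and differed by 0.023 (CI -0.18 to 0.23), an interval that reaches 0.23 and does not include the 0.84 seen for DCA. The median difference over the 31 genes was 0.02, as over all genes. The enterocyte sums of CDCA and DMSO overlapped, and 0 of 17 enterocyte markers passed.

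The 3 pairs of acids were compared at the same stated dose and time. These comparisons share libraries with each other and with those above. DCA, which lacks a hydroxyl group of CA, was higher than CA in 14 of 31 genes and lower in 0, while 14.7% of all genes passed and 5.79% were higher. The median difference was 0.37 over the 31 genes. Insig1 led again, with DCA 0.84 (CI 0.65 to 1.03) above CA (limma adjusted p = 0.000428), followed by Cyp51 at 0.66 (CI 0.43 to 0.90), Npc1l1 at 0.63 (CI 0.31 to 0.96) and Mvd at 0.60 (CI 0.41 to 0.80). Of the 18 enzymes, 10 passed, and Hmgcs1, Msmo1, Sqle and Fdft1 were between 0.45 and 0.54. The exporter subunits did not pass between these acids. Abcg5 differed by 0.31 (95% CI -0.024 to 0.65, limma adjusted p = 0.195), with CA replicate 1 (111 TPM) among the DCA libraries (106 to 119 TPM), and Abcg8 by 0.45 (95% CI 0.14 to 0.76, limma adjusted p = 0.0522). Abcg8 lay at the threshold and passed as higher in 10 of its alternatives (limma adjusted p = 0.0218 to 0.0496), among them without CA replicate 1 (0.59, limma adjusted p = 0.0270). Soat2 passed narrowly, at 0.37 (95% CI 0.13 to 0.61, limma adjusted p = 0.0439). Of the 17 enterocyte markers 5 passed as higher in DCA than CA, and the median difference over the 17 was 0.72. Of the stem cell markers 8 of 11 passed as lower, as did 11 of 11 markers of dividing cells, and the part of these markers in the differences was not tested. The count fell to 8 without CA replicate 2, to 8 without DCA replicate 1 and to 7 without DCA replicate 2. The call of Npc1l1 was lost in each of these (limma adjusted p = 0.0654 to 0.0776).

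DCA was higher than CDCA, its isomer with the hydroxyl groups placed differently, in 23 of 31 genes and lower in 0, while 27.8% of all genes passed and 12.8% were higher. Of the 18 enzymes 16 passed, all but Mvk and Ebp, and the median difference was 0.50 over the 31 genes. With median-ratio scaling Mvk passed too (0.28, limma adjusted p = 0.0318). Insig1 differed by 1.21 (95% CI 1.02 to 1.40, limma adjusted p = 2.58e-05), Npc1l1 by 1.01 (CI 0.68 to 1.33) and Cyp51 by 0.93 (CI 0.69 to 1.17). For Msmo1 the DCA libraries (149 to 161 TPM) stood well clear of the CDCA libraries (78.3 to 88.3 TPM), at 0.92 (95% CI 0.73 to 1.11, limma adjusted p = 0.000167). Acat2, which passed in no other comparison, was at 70.3, 61.3 and 56.9 TPM in CDCA and 80.2, 79.4 and 76.9 TPM in DCA, a difference of 0.33 (95% CI 0.11 to 0.55, limma adjusted p = 0.0299). That call was lost in 8 alternatives, among them without CDCA replicate 2 or 3 or any DCA library (limma adjusted p = 0.0594 to 0.0927). Nsdhl, which did not pass against DMSO, passed here at 0.48 (95% CI 0.27 to 0.70, limma adjusted p = 0.00438). Scap was at 17.8 to 20.9 TPM in CDCA and below that in every DCA library, and did not pass at -0.36 (95% CI -0.64 to -0.08, limma adjusted p = 0.0549). It did pass as lower in 7 of its alternatives. Srebf1 passed as lower in 3, with mitochondrial and rRNA rows left out (-0.36, limma adjusted p = 0.0413), without CDCA replicate 3 (-0.38, limma adjusted p = 0.0489) and with that library and DMSO replicate 1 left out (limma adjusted p = 0.0164). Of the enterocyte markers 16 of 17 passed as higher in DCA than CDCA, and all 11 stem cell markers and all 11 markers of dividing cells as lower, and their part in the differences was not tested.

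CDCA and CA, which differ by a hydroxyl group, were not resolved in any of the 31 genes by limma, and 0.0335% of all genes passed. At an unadjusted p under 0.05 there were 10 of 31, against 7.20% of all genes. In 10 of the 31 genes every CDCA library lay below every CA library, as in 6.47% of all genes, and in 0 did every CDCA library lie above, as in 4.19% of all genes. Of these 10, 9 were enzymes and the other was Insig1. Msmo1 was at 107, 106 and 113 TPM in CA and 88.3, 78.3 and 81.5 TPM in CDCA, a difference of -0.39 (95% CI -0.58 to -0.20, limma adjusted p = 0.317). Dhcr7 differed by -0.32 (CI -0.52 to -0.12), Insig1 by -0.37 (CI -0.56 to -0.18) and Fdft1 by -0.28 (CI -0.47 to -0.081). The median difference was -0.19 over the 31 genes. With CDCA replicate 3 and DMSO replicate 1 left out together, Msmo1, Insig1 and Npc1l1 passed as lower in CDCA. The enterocyte sums were 4169.7 to 6421 TPM in CA and 2898 to 4484 TPM in CDCA and overlapped through CDCA replicate 3. All 17 enterocyte markers had a lower fitted mean in CDCA than CA (median difference -0.61, from -1.21 to -0.15), 5 of them without overlap, and all 11 stem cell markers a higher one (0.092 to 0.71), though none passed the limma test. Their part in the differences was not tested.

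Over all 4 groups, a moderated F test found a difference in 22 of the 31 genes, against 28.5% of all genes. The 9 that did not pass were Acat2, Mvk, Ebp, Insig2, Srebf1, Srebf2, Scap, Npc1 and Abca1. DCA had the highest group mean in 27 of the 31 genes. The others were Ebp, highest in CA (31.7 ± 5.12 TPM), Srebf1 and Scap, highest in CDCA (98.2 ± 17.1 and 19.2 ± 1.59 TPM), and Npc1, highest in DMSO (9.03 ± 0.743 TPM). In none of these 4 was the highest group apart from its neighbour beyond the spread between libraries.

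Other genes of sterol biology were counted in the same way, and the counts under DCA stand beside the 18.8% of all genes that were higher and the 19.2% that were lower. Of 11 further genes of SREBP processing and sterol sensing, 10 were tested and under DCA 4 rose and 1 fell. Pgrmc1, a membrane protein that binds heme, differed by 0.46 (95% CI 0.21 to 0.71, limma adjusted p = 0.00803), and the endoplasmic reticulum proteins Erlin2 and Erlin1 by 0.34 and 0.42. Rnf145, a sterol-responsive ubiquitin ligase, fell from 42.6, 39.2 and 43.3 TPM in DMSO to 31.4, 29.2 and 34.2 TPM in DCA, a difference of -0.39 (95% CI -0.57 to -0.22, limma adjusted p = 0.00231). Of 9 genes that take isoprenoids into other products, 0 rose and 2 fell under DCA, a share near that of all genes. These were Fntb, a subunit of protein farnesyltransferase, from 10.4 ± 2.01 TPM in DMSO to 5.67 ± 0.328 TPM in DCA (SD, n = 3, -0.75, limma adjusted p = 0.00113), and Pdss1, which builds the side chain of ubiquinone (-0.38, limma adjusted p = 0.0227). Of 7 genes of oxysterol and bile acid synthesis, 4 were tested and only Akr1d1, which reduces steroid intermediates on the way to bile acids, passed. It was lower under each acid than in DMSO, at 2.05 to 3.66 TPM in DMSO and 0.0235 to 0.457 TPM in DCA. Its 3 DMSO libraries met the filter by themselves, while each DCA library was under 1 TPM. These calls therefore rest on a low gene that met the filter through the group where it was high.

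Of 18 further genes of sterol transport and storage, 16 were tested, and 6 rose and 0 fell under DCA, while 38.0% of all genes passed in either direction. Scarb1, a lipoprotein receptor that moves cholesteryl esters and sterols, was at 57.9, 43.0 and 48.6 TPM in DMSO and 108, 117 and 93.8 TPM in DCA, a difference of 1.08 (95% CI 0.77 to 1.40, limma adjusted p = 0.00019). Lpcat3, which remodels membrane phospholipids, rose by 0.85 (95% CI 0.68 to 1.02, limma adjusted p = 2.81e-05) and Osbp, an oxysterol-binding protein, by 0.45. Vldlr, a lipoprotein receptor, passed against DMSO under each acid. It was at 15.8, 15.8 and 15.5 TPM in DMSO, 21.5, 21.9 and 20.8 TPM in CA, 26.1, 24.3 and 24.8 TPM in CDCA and 27.1, 28.0 and 26.3 TPM in DCA, and the differences were 0.43, 0.64 and 0.75 (limma adjusted p = 0.0277, 0.00114 and 3.67e-05). Of 12 lipogenic genes under SREBP1, 8 rose and 0 fell under DCA, 1 rose under CA and 2 rose under CDCA. Scd1, a stearoyl-CoA desaturase, passed under all 3 acids, with libraries at 76.4 to 88.8 TPM in DMSO, 137 to 155 TPM in CA, 152 to 227 TPM in CDCA and 395 to 460.0 TPM in DCA. Scd2, its paralogue, passed under CDCA at 0.57 and under DCA at 0.83.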

How the data were processed

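The authors deposited 1 table per library of values in TPM, and per the submitters' processing notes Salmon 1.8.0 and build GRCm39 were used. The unit was inferred from the values. Not given in the sources used here are the strand setting, the annotation and the step from transcripts to genes. Per the labels' protocols, poly(A) RNA was converted to strand-marked paired-end libraries. TPM keeps no depth, and 4 of 4802 rows with a mean of at least 20 TPM were listed at 0 in some library, so a 0 can be a failed estimate.

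Values were taken as log2(TPM + 1). Rows that reached 1 TPM in 3 or more libraries were fitted in limma 3.58.1 (R 4.3.3) with 4 group means over 12 libraries, a mean-variance trend and robust moderation. Tests were two-sided, and p-values were adjusted by the Benjamini-Hochberg method over all tested genes, separately for the 6 comparisons, with a threshold of 0.05. The model was also run on simulated data that took their means and spread from these libraries. Alternatives were no filter, median-ratio scaling, mitochondrial and rRNA rows left out, a block for the replicate number, a pseudocount of 0.1, fits restricted to the 6 libraries compared, no trend or robust moderation, and the omission of single libraries or of a pair. All 31 genes are named, and of each further list up to 4 genes with the smallest p. The genes and lists were chosen with earlier results of these data known. The promoter table had no entry for Fdps, Fdft1, Sqle, Stard4, Npc1 and Soat2. One marker of the distal gut is not reported here.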

Additional observations from a re-analysis of the deposited data

How the results depend on the processing

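With 31 genes in each comparison and up to 20 alternatives, no difference that passed reversed. For DCA against DMSO the count of 21 ranged from 20 to 23 and for DCA against CDCA the count of 23 from 19 to 26. The F test count of 22 ranged from 17 to 23. For CA against DMSO the count of 2 became 6 with CDCA replicate 3 and DMSO replicate 1 left out together, 1 in the fit of the 6 libraries compared, 1 without trend and robust moderation, 0 with no filter and 0 with median-ratio scaling, and ranged from 0 to 3 when each library was left out in turn. For CDCA against DMSO the count of 0 became 1 with that pair left out and ranged from 0 to 1 when each library was left out. For CDCA against CA the count of 0 became 3 with the pair left out, and for DCA against CA the count of 14 ranged from 7 to 18 when each library was left out, and was 21 with median-ratio scaling and 19 in the fit of the 6 libraries compared. In DCA against CA, Fdps and Soat2 lost their calls in 10 and 11 alternatives, and Dhcr7, Npc1l1, Sc5d and Stard4 in 3 each. The cause was not tested. The replicate numbers gave no sign of pairing between libraries. Of 18 same-numbered pairs 3 had a correlation of deviations over 0.1, and 2 of 12 libraries correlated best with their own number. Such correlations could miss a weak shared effect, and the labels do not say what the number marks. With the replicate block the counts were 2, 0, 21, 0, 13 and 22 for CA, CDCA and DCA against DMSO, CDCA and DCA against CA and DCA against CDCA, and 21 for the F test. TPM gives no depth, so the error of low values such as Abca1 cannot be stated.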

Other observations

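Within-library ratios of related transcripts were examined after the values were seen, and are given as values only. The ratio of Insig1 to Insig2, the paralogous anchors of SCAP, was 7.79, 5.85 and 6.33 in DMSO, 8.95, 8.13 and 9.85 in CA, 7.56, 6.84 and 5.82 in CDCA and 14.4, 13.1 and 13.8 in DCA. All DCA libraries were above all others, CA libraries were above DMSO, and CDCA and DMSO overlapped. The ratio of Soat2, the enterocyte sterol acyltransferase, to its more widely expressed relative Soat1 was 0.437, 0.332 and 0.277 in DMSO, 0.588, 0.550 and 0.611 in CA, 0.368, 0.412 and 0.624 in CDCA and 0.980, 0.968 and 0.768 in DCA, in which CDCA replicate 3 stood above the other CDCA libraries and above CA. Soat1 itself was at 65.4 to 92.6 TPM in DMSO and 55.9 to 65.3 TPM in DCA, so the ratio does not report Soat2 alone. The importer Npc1l1 and the exporter subunit Abcg5 were at a ratio of 0.803 to 1.04 in DMSO, 0.934 to 1.03 in CA, 0.872 to 1.04 in CDCA and 1.20 to 1.26 in DCA. The ratio of the subunits Abcg5 and Abcg8 was 1.64 to 1.73 in DMSO, 1.76 to 1.81 in CA, 1.65 to 1.75 in CDCA and 1.58 to 1.63 in DCA. Every DCA library was below, and every CA library above, every DMSO library, but the highest DCA ratio (1.635) lay only just under the lowest DMSO ratio (1.637).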
